A study of Mus musculus with 13 samples.

Results

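The comparison described here set 5 arrays of alloresponding CD4+ T cells from mice given Cl-BBQ against 4 arrays of the same kind of cell from mice given TCDD. These 9 of the 13 arrays of the series were chosen by the treatment named in their sample labels. The other 4 arrays, from mice given vehicle, served as background. In this model of graft-versus-host disease, CFSE-labelled splenocytes of C57Bl/6 mice, equal to 40000000 T cells, were injected intravenously into B6D2F1 hosts on day 0, and the mice were 10 to 12 weeks old. TCDD was given intraperitoneally at 15 µg/kg as 1 dose on day 0. Cl-BBQ was given by the same route at 10 mg/kg as 3 doses, on days 0, 1 and 2, and vehicle was given on the same 3 days as Cl-BBQ. Ligand, dose and schedule therefore differ together, and what each contributed cannot be told apart. All mice were killed on day 3, 72 h after transfer, and CD4+ T cells from spleen and lymph node that had divided at least 2 times by CFSE dilution were isolated with magnetic beads and then sorted. The labels call the arrays of each group biological replicates. The comparison asks how gene expression in the alloresponding cells differed between the ligand regimens.

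The aryl hydrocarbon receptor, AhR, is a ligand-activated transcription factor that waits in the cytoplasm with the chaperones HSP90 and p23. On binding a ligand it moves to the nucleus, pairs with ARNT and binds DNA elements whose core reads GCGTG, which induces genes for xenobiotic metabolism such as Cyp1a1 and Cyp1b1. TCDD, a chlorinated dioxin, is an AhR ligand that the body clears very slowly, and Cl-BBQ is another AhR ligand. In T cells AhR activation is known to alter how CD4+ cells become effector, regulatory or interleukin-22-producing cells. In graft-versus-host models it is known for limiting the alloresponse of donor T cells.

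Expression values are log2 values from the deposited table, so a difference of 1 is a doubling. Each of 22180 genes was represented by 1 probe set, and 12710 genes were tested because at least 4 arrays gave them a value over 4.31, a floor set at the median of the whole table. Over these genes, Cl-BBQ and TCDD arrays correlated with each other at 0.969 to 0.985, Cl-BBQ arrays with vehicle arrays at 0.950 to 0.969 and TCDD arrays with vehicle arrays at 0.966 to 0.974. Cl-BBQ replicate 1 stood apart from its group, with correlations of 0.969 to 0.972 to the other 4 Cl-BBQ arrays. The 10 tested genes of the CD4 T cell marker list differed between the ligands by -0.08 to 0.07, and Cd4 itself averaged 10.58 ± 0.07 (SD, n = 5) with Cl-BBQ and 10.58 ± 0.08 (SD, n = 4) with TCDD. Of 10 measured B cell markers, Ms4a1, Cr2, Fcrla and Ebf1 were at or below the floor on all arrays. The summed linear signal of the 10, on a log2 scale, was 7.37 to 7.63 with Cl-BBQ, 7.28 to 7.55 with TCDD and 7.71 to 7.90 with vehicle, and Cd79b averaged 5.33 with Cl-BBQ and 4.79 with TCDD (difference 0.54, interval -0.02 to 1.10).

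Granzyme A, the interleukin-7 receptor and the quinone reductase Nqo1 were higher with Cl-BBQ than with TCDD, and few other genes separated the regimens. By limma with Benjamini-Hochberg adjustment, 3 of 12710 genes passed at an adjusted p under 0.05, which is 0.0236% of those tested. All 3 were higher with Cl-BBQ, namely Gzma, Il7r and Nqo1. No gene was lower with Cl-BBQ at that threshold (0.0%), and 470 were at an unadjusted p under 0.05. The 3 calls rest on single arrays: no gene passed without Cl-BBQ replicate 2, 3 or 5, without any 1 of the 4 TCDD replicates or without vehicle replicate 4. Without Cl-BBQ replicate 1 or vehicle replicate 2 the count was 2, without Cl-BBQ replicate 4 it was 4 and without vehicle replicate 3 it was 5. It was 0 when the 9 ligand arrays were fitted alone and 7 with a floor of 6. At an unadjusted p under 0.05 in the same limma fit, 815 genes differed (6.41%), 345 of them higher (2.71%) and 470 lower (3.7%) with Cl-BBQ. The values of all 5 Cl-BBQ arrays lay above those of all 4 TCDD arrays for 131 genes (1.03%) and below them for 137 (1.08%). Across all genes tested the median difference was -0.0044, and the central 95% of differences ran from -0.36 to 0.33. A difference over 1 in either direction was seen for 12 genes (0.0944%).

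The data bounded the difference for most genes. The 95% confidence interval of the difference lay within 1 of 0 for 12507 genes (98.4%) and within 0.5 of 0 for 9517 (74.9%), with a median standard error of 0.13. Against vehicle, by contrast, limma with the same adjustment called 1441 genes (11.3%) for Cl-BBQ, 675 higher (5.31%) and 766 lower (6.03%). It called 853 genes (6.71%) for TCDD, 408 higher (3.21%) and 445 lower (3.5%). The 2 vehicle comparisons share the 4 vehicle arrays, so they are not independent, and whether their counts differ was not tested. A gene that missed the threshold between the ligands is not thereby shown to respond alike.

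**Figure D1:**
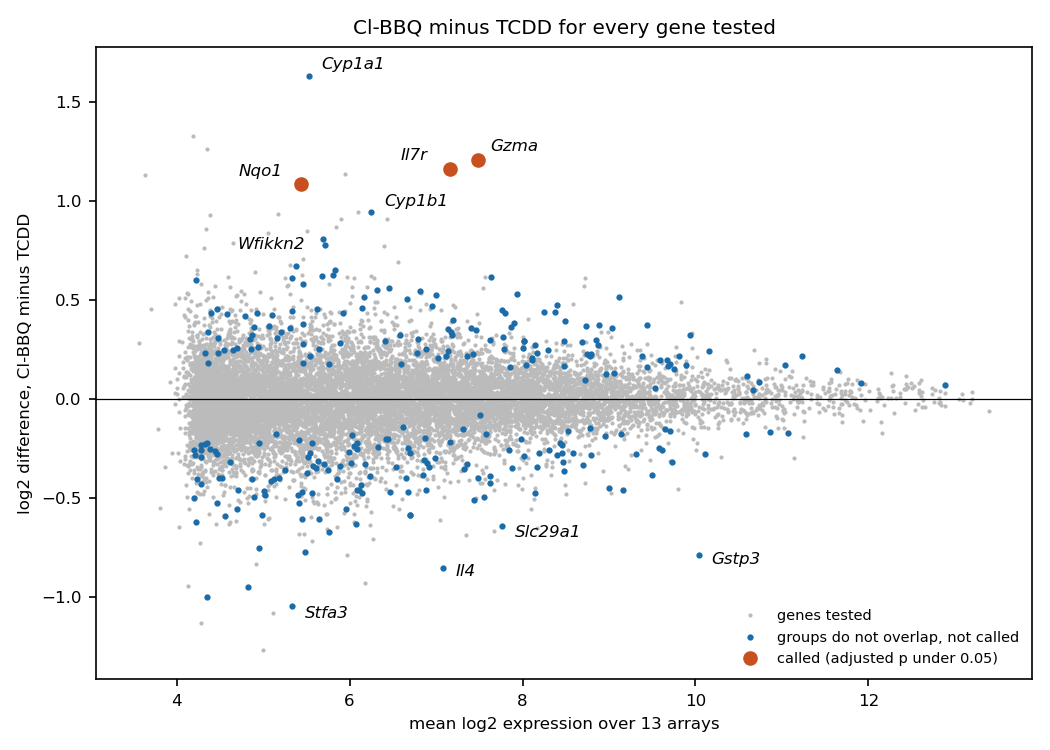
Difference between Cl-BBQ and TCDD (log2, vertical axis) against the mean log2 expression over 13 arrays (horizontal axis), with 1 point for each of 12710 genes tested. Orange points are the 3 genes called, blue points those not called whose Cl-BBQ and TCDD values do not overlap, and the central 95% of genes lie between -0.36 and 0.33.

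By its median, the AhR target list stood farthest from 0 among the lists with 4 or more tested members. The lists were drawn up with earlier results of these data known. Their counts stand beside the shares of all genes tested, 2.71% higher and 3.7% lower at an unadjusted p under 0.05 by limma. Without overlap, 1.03% of all genes were higher and 1.08% lower. Of 13 listed direct AhR targets 11 were measured and 7 tested, and 1 of the 7, Nqo1, passed the adjusted test. All 7 differences were positive, that is higher with Cl-BBQ, with a median of 0.62 beside -0.0044 over all genes, and 4 had an unadjusted p under 0.05 in the limma fit. Those 4 genes, Nqo1, Cyp1a1, Cyp1b1 and Tiparp, were also the 4 whose groups did not overlap. Against vehicle, 6 of the 7 targets had a positive difference with each ligand, and 5 passed the adjusted limma test as higher with each. Of all genes tested, 5.31% with Cl-BBQ and 3.21% with TCDD were called higher.

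The AhR element core was looked for in the promoters of the targets Nqo1, Cyp1a1, Cyp1b1, Tiparp and Ahrr and of Gzma and Il7r. Gstp3, Wfikkn2, Ticrr and Slc29a1, described below, were searched too. The search read letters in the 250 bases before the transcription start (RefSeq sequences, build GRCm38.p6, first listed start). The search was for GCGTG or its reverse complement CACGC, so that both strands were covered, and capitals mark each match. Of 152 genes named by rule or in the lists, 120 had a promoter entry. Cyp1a1 (chr9:57697363-57697612, plus strand) and Cyp1b1 (chr17:79715062-79715311, minus strand) each held 1 match, Ahrr (chr13:74292332-74292581, minus strand) held 3, and Nqo1 (chr8:107403206-107403455, minus strand), Gzma (chr13:113100982-113101231, minus strand) and Il7r (chr15:9529877-9530126, minus strand) held none. The sequences of these 6 genes are shown because they carry the largest or best-known differences between the regimens, or, for Ahrr, because a well-known target with several matches did not separate them.
Cyp1a1: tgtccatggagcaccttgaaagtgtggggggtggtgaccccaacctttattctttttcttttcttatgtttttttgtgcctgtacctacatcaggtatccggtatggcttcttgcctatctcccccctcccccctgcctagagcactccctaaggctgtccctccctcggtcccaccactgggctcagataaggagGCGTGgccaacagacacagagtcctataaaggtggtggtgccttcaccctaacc
Cyp1b1: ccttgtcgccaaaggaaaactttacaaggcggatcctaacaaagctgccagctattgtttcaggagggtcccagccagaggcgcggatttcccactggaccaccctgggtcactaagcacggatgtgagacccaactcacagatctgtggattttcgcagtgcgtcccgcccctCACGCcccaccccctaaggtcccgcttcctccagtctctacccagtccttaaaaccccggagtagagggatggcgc
Ahrr: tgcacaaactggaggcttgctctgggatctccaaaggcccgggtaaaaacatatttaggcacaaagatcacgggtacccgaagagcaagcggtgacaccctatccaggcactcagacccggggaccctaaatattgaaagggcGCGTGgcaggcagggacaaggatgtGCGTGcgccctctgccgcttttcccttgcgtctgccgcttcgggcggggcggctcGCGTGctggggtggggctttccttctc
Nqo1: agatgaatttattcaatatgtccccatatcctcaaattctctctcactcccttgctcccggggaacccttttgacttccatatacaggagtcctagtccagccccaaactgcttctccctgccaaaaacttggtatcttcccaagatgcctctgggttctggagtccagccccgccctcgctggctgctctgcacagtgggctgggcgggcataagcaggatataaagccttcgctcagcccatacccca
Gzma: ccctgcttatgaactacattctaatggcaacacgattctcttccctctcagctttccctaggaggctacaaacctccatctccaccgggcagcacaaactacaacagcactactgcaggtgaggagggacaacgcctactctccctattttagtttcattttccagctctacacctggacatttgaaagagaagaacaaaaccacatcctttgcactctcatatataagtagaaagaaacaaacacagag
Il7r: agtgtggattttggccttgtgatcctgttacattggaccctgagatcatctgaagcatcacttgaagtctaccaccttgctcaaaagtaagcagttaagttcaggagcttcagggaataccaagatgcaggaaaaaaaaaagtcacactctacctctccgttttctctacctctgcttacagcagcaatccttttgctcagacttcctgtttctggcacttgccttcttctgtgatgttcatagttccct
Tiparp (chr3:65528197-65528446, plus strand) held 1 match. Of the genes with lower values with Cl-BBQ, Gstp3 held 1 match, Ticrr 2 and Slc29a1 none at its first listed start. Wfikkn2, with higher values, held none. These letters are common, since 28.2% of all 27025 promoters of this length and 43.3% of the 9993 belonging to tested genes held at least 1. A match is a description of the window and not evidence of a bound site, and a window without one says nothing about elements elsewhere.

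Nqo1 encodes a quinone reductase that is induced both by AhR and by NRF2. Its log2 expression was 6.63, 6.30, 6.43, 6.06 and 6.64 on the Cl-BBQ arrays, 5.65, 5.36, 4.88 and 5.42 on the TCDD arrays and 4.58, 4.41, 4.20 and 4.10 on the vehicle arrays. The 3 groups did not overlap, and TCDD lay between the others. The difference between Cl-BBQ and TCDD was 1.08 (SE 0.16, 95% interval 0.74 to 1.43), or 2.12-fold, with an adjusted p of 0.039 by limma. It passed in 3 of the 13 fits that left out 1 array each, with a difference of 0.93 to 1.19 across them. Relative to vehicle, Nqo1 rose by 2.09 with Cl-BBQ and by 1.01 with TCDD.

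Cyp1a1, the cytochrome P450 most used as a readout of AhR activity, showed the largest positive difference of all genes tested. It read 6.61, 7.09, 7.40, 6.96 and 6.86 with Cl-BBQ, 5.76, 5.76, 4.58 and 5.32 with TCDD and 3.23, 4.05, 4.35 and 3.96 with vehicle. The lowest Cl-BBQ array stood above the highest TCDD array, but the TCDD values spread over more than 1 log2 unit. The difference was 1.63 (SE 0.26, interval 1.08 to 2.18), or 3.10-fold, and its adjusted p by limma, 0.051, missed the threshold. Without vehicle replicate 1 or 3 that p was 0.049. Vehicle averaged 3.90, below the floor of 4.31, where array values compress differences, so the rises over vehicle of 3.08 with Cl-BBQ and 1.45 with TCDD may understate the change.

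Cyp1b1, a related P450, read 7.50, 7.78, 8.32, 7.48 and 8.0 with Cl-BBQ, 7.03, 6.80, 6.73 and 6.92 with TCDD and 3.86, 3.78, 3.92 and 3.14 with vehicle. Every ligand array was far above every vehicle array, and all Cl-BBQ arrays were above all TCDD arrays. The difference between ligands of 0.94 (SE 0.19, interval 0.55 to 1.34) had an adjusted p of 0.22 by limma. Tiparp encodes a poly(ADP-ribose) polymerase family member that feeds back on AhR, and its values were 8.09, 8.48, 8.58, 8.56 and 8.41 with Cl-BBQ, 8.04, 7.83, 7.56 and 7.79 with TCDD and 6.55, 6.56, 6.63 and 6.19 with vehicle. Its groups just failed to meet, 8.09 against 8.04 at the nearest, with a difference of 0.62 (SE 0.13, interval 0.34 to 0.90) and an adjusted p of 0.28 by limma. A further probe set of Tiparp gave 0.61.

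Ahrr, the AhR repressor and a standard AhR target, did not separate the ligands. It read 4.89, 5.20, 5.63, 5.45 and 5.24 with Cl-BBQ, 4.94, 5.04, 4.92 and 5.36 with TCDD and 3.29, 4.06, 4.20 and 3.65 with vehicle. The ligand groups overlapped and both lay above vehicle, over which Ahrr rose by 1.49 with Cl-BBQ and 1.27 with TCDD in the fit, from a vehicle mean of 3.80 below the floor. The difference between ligands was 0.22 with an interval of -0.18 to 0.62, which excludes a difference of the size seen for Cyp1a1. Cyp1a2 and Scin, also listed as targets, were measured but stayed too near the floor to be tested, at means of 3.96 and 3.26 with Cl-BBQ and 3.94 and 3.25 with TCDD.

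The receptor and its partners did not separate the regimens. All 8 tested genes of the AhR complex had intervals within 1 of 0, differences ran from -0.19 to 0.09, and none had an unadjusted p under 0.05 by limma (1 was lower without TCDD replicate 4). Ahr itself averaged 6.25 ± 0.23 (SD, n = 5) with Cl-BBQ and 6.39 ± 0.42 (SD, n = 4) with TCDD, a difference of -0.14 with an interval of -0.54 to 0.25. Arnt, its DNA-binding partner, differed by -0.01 (interval -0.24 to 0.22), and Hsp90aa1, the chaperone, by 0.09 (interval -0.08 to 0.25).

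**Figure D2:**
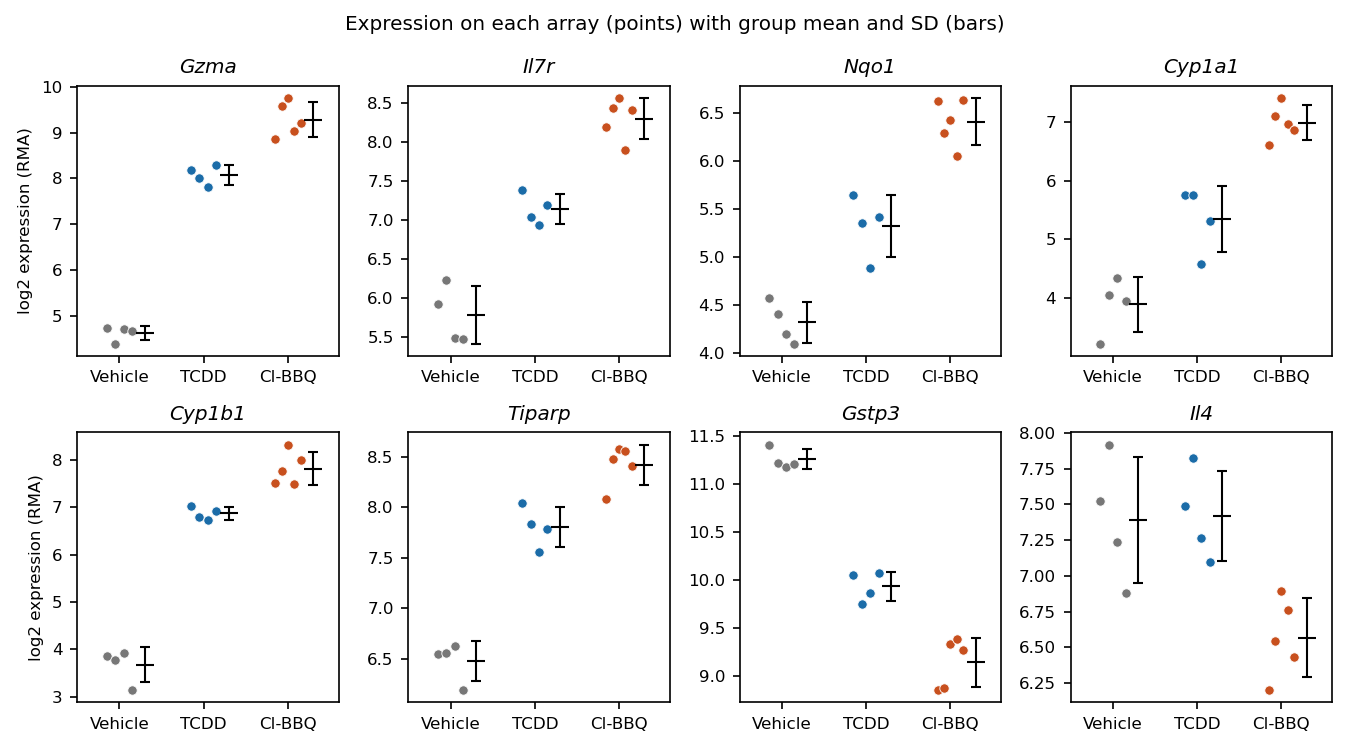
Log2 expression of 8 genes on each array (points) with the group mean and SD (bars), for Cl-BBQ (n = 5), TCDD (n = 4) and vehicle (n = 4). For Gzma, Il7r, Nqo1, Cyp1a1, Cyp1b1 and Tiparp the Cl-BBQ points lie above the TCDD points, and for Gstp3 and Il4 they lie below.

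Genes of cytotoxic granules formed the next group. Gzma, granzyme A, a serine protease delivered by killer cells, had the smallest p of all genes between the ligands. It read 8.85, 9.58, 9.75, 9.04 and 9.20 with Cl-BBQ, 8.18, 8.02, 7.81 and 8.30 with TCDD and 4.73, 4.39, 4.72 and 4.67 with vehicle. No group overlapped another, and the lowest Cl-BBQ array was the replicate 1 that stood apart. The difference between ligands was 1.21 (SE 0.17, interval 0.85 to 1.57), or 2.31-fold, with an adjusted p of 0.039 by limma, against rises over vehicle of 4.66 with Cl-BBQ and 3.45 with TCDD. Of the 13 fits without 1 array, 5 kept Gzma past the threshold, and the difference ranged from 1.09 to 1.32. In bulk sorted cells, more cells that express a gene and more RNA per cell cannot be told apart.

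Other cytotoxic genes gave smaller differences. Of 12 tested members of the list, Gzma passed the adjusted test, 4 had a higher value with Cl-BBQ at an unadjusted p under 0.05 by limma and none a lower one (1 without TCDD replicate 1), and the median difference was 0.23. Of the 12 differences, 8 were positive and 4 negative. Gzmm, granzyme M, differed by -0.32 (interval -0.71 to 0.07) and Gzmk, granzyme K, by -0.19 (interval -0.62 to 0.25). Ctsw, cathepsin W of cytotoxic cells, read 9.06, 8.84, 8.75, 8.87 and 8.71 with Cl-BBQ and 8.33, 8.25, 8.54 and 8.51 with TCDD, without overlap, for a difference of 0.44 (interval 0.21 to 0.67, adjusted p 0.43 by limma). Gzmb, granzyme B, reached 10.79, 11.51, 11.42, 11.14 and 11.44 with Cl-BBQ against 10.85, 10.68, 10.81 and 10.74 with TCDD, where only the lowest Cl-BBQ array fell within the TCDD range. Its difference was 0.49 (interval 0.14 to 0.84), small beside its rises over vehicle of 4.16 with Cl-BBQ and 3.67 with TCDD. Nkg7, a granule membrane protein, differed by 0.25 (interval 0.02 to 0.48) and Prf1, the pore-forming perforin, by 0.34 (interval -0.19 to 0.88). Against vehicle, 10 of the 12 differences were positive with Cl-BBQ and 11 with TCDD, and 7 genes passed the adjusted limma test as higher with each. Of all genes tested, 5.31% and 3.21% were called higher.

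Markers of other killer cells were measured beside these genes. The summed linear signal of the NK cell list, on a log2 scale, was 9.27 to 9.98 on the Cl-BBQ arrays and 8.59 to 8.96 on the TCDD arrays, but that list contains Gzma. Of its 8 measured members, Klrk1, Klrc1 and Klre1 were at or below the floor on all arrays. Other members were above it: Klrb1c averaged 5.60 with Cl-BBQ, 5.77 with TCDD and 6.10 with vehicle, and Tyrobp 5.97, 5.88 and 5.48. Between the ligands, Ncr1 differed by -0.14 (interval -0.41 to 0.14), Klrb1c by -0.17 (interval -0.52 to 0.18) and Tyrobp by 0.09 (interval -0.19 to 0.37). The summed signal of the CD8 T cell markers was 6.79 to 7.52 with Cl-BBQ and 6.65 to 7.22 with TCDD. Cd8a averaged 4.77 and 4.75, and Cd8b1 averaged 6.88 ± 0.44 (SD, n = 5) and 6.48 ± 0.28 (SD, n = 4), a difference of 0.40 with an interval of -0.02 to 0.82. What part other cells had in the granule genes was not tested.

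Genes of the Th1 program, which drives interferon-gamma responses, were mostly a little higher with Cl-BBQ. Of 14 tested members none passed the adjusted test, 12 differences were positive with a median of 0.26, and 3 were higher and 1 lower at an unadjusted p under 0.05 by limma. The count of 3 rose to 6 in a fit of the 9 ligand arrays alone and to 6 without Cl-BBQ replicate 1. It was 5 without TCDD replicate 1, 6 without vehicle replicate 2 and 5 without vehicle replicate 3. Il18r1, a chain of the interleukin-18 receptor, read 7.26, 7.57, 7.78, 7.43 and 7.87 with Cl-BBQ and 7.18, 6.95, 7.15 and 7.17 with TCDD, without overlap (difference 0.47, interval 0.20 to 0.74, adjusted p 0.46 by limma). Its partner chain Il18rap differed by 0.56 (interval 0.14 to 0.99) with overlapping groups. Runx3, a transcription factor of Th1 and cytotoxic cells, was 8.63 ± 0.10 (SD, n = 5) against 8.39 ± 0.08 (SD, n = 4), a difference of 0.25 (interval 0.08 to 0.42) without overlap.

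Among core Th1 genes, Tbx21, Ifng, Tnf and Il12rb2 missed an unadjusted p under 0.05 between the regimens by limma. Tbx21 (0.056) and Il12rb2 (0.055) missed it narrowly in that fit. Tbx21, the master regulator T-bet, differed by 0.30 (interval -0.01 to 0.62), Ifng by 0.25 (interval -0.17 to 0.67) and Tnf by -0.03 (interval -0.49 to 0.43). Il12rb2, the signalling chain of the interleukin-12 receptor, had risen over vehicle by 4.81 with Cl-BBQ and 4.47 with TCDD, and the difference between ligands was 0.34 (interval -0.01 to 0.69). Hlx, a T-bet partner, was the 1 member lower with Cl-BBQ at an unadjusted p under 0.05 by limma, at -0.32 (interval -0.59 to -0.05). It was not below that p without Cl-BBQ replicate 1, TCDD replicate 1 or TCDD replicate 3.

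**Figure D3:**
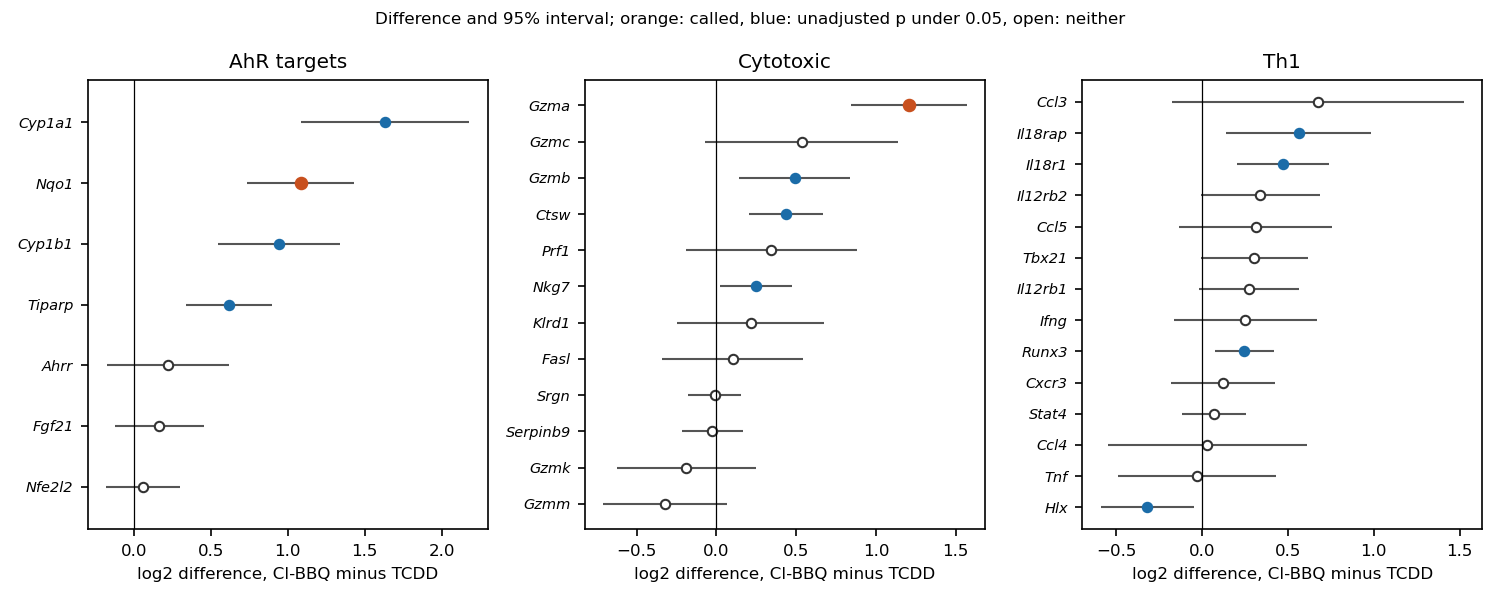
Difference between Cl-BBQ and TCDD (log2, horizontal axis) with its 95% interval for each tested gene of the AhR target, cytotoxic and Th1 lists. Orange marks Nqo1 and Gzma, which passed the adjusted test, blue marks an unadjusted p under 0.05 and open points neither, and all 7 AhR targets lie right of 0.

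Il7r, the alpha chain of the receptor for interleukin-7 that keeps resting and memory T cells alive, was the third gene to pass. It read 8.19, 8.44, 8.56, 7.90 and 8.42 with Cl-BBQ, 7.38, 7.04, 6.94 and 7.19 with TCDD and 5.92, 6.23, 5.48 and 5.47 with vehicle. All 3 groups were apart, with TCDD in the middle. The difference between ligands was 1.16 (SE 0.17, interval 0.80 to 1.53), or 2.24-fold, with an adjusted p of 0.039 by limma, and the rises over vehicle were 2.53 and 1.36. With 1 array left out at a time, it passed in 3 of 13 fits, and the difference was 1.10 to 1.26. The 12 other tested genes of the naive and quiescent T cell list had a median difference of 0.08. Satb1, a chromatin organizer of T cells, differed by 0.28 (interval 0.09 to 0.46) without overlap, and Id3, an inhibitor of E proteins, by -0.34 (interval -0.63 to -0.04). Id3 was not at an unadjusted p under 0.05 by limma without Cl-BBQ replicate 2, 3 or 5 or TCDD replicate 2 or 3. Klf2, Foxo1 and Bach2, which maintain quiescence, differed by -0.05 (interval -0.27 to 0.16), 0.05 (interval -0.13 to 0.24) and 0.02 (interval -0.30 to 0.33).

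Genes of recent activation and cytokine signalling had small median differences, 0.08 over 20 tested early activation genes and 0.07 over 11 tested JAK-STAT feedback genes. None passed the adjusted test. The largest early activation difference was that of Jun, 0.61 with an interval of -0.04 to 1.27. In early activation, 4 genes were higher with Cl-BBQ and none lower at an unadjusted p under 0.05 by limma, a count that was 1 without Cl-BBQ replicate 3 and 2 without TCDD replicate 1 or 2. Myc, a growth regulator, read 7.52, 7.41, 7.69, 7.58 and 7.51 with Cl-BBQ and 7.06, 7.12, 7.28 and 7.11 with TCDD, without overlap, a difference of 0.40 (interval 0.09 to 0.70). Fos, an immediate early factor, differed by 0.50 (interval 0.05 to 0.95), Dusp5, a phosphatase acting on ERK, by 0.34 (interval 0.03 to 0.64) and Cd69, an activation and retention marker, by 0.28 (interval 0.05 to 0.51). In the feedback list, Socs3, an inhibitor of cytokine receptors, was 7.57 ± 0.18 (SD, n = 5) against 7.05 ± 0.13 (SD, n = 4) without overlap, a difference of 0.52 (interval 0.14 to 0.91). Pim1, a kinase induced by STAT5, differed by 0.56 (interval 0.18 to 0.93). Il2ra, the alpha chain of the interleukin-2 receptor and a member of the early activation list, differed by 0.31 (interval -0.05 to 0.68).

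Il4 and Il21 had lower values with Cl-BBQ than with TCDD. Il4, the defining Th2 cytokine, read 6.20, 6.55, 6.90, 6.76 and 6.43 with Cl-BBQ, 7.49, 7.82, 7.26 and 7.10 with TCDD and 7.52, 7.92, 7.24 and 6.88 with vehicle. Each Cl-BBQ array was below each TCDD array, while TCDD and vehicle covered the same range. The difference between ligands was -0.85 (SE 0.20, interval -1.29 to -0.42) with an adjusted p of 0.43 by limma, and Il4 fell by 0.82 from vehicle with Cl-BBQ (adjusted p 0.015 by limma, 0.056 without vehicle replicate 2) and differed by 0.03 with TCDD. Il21, a cytokine of follicular helper cells, read 8.96, 8.75, 9.13, 9.07 and 9.12 with Cl-BBQ, 9.52, 9.56, 9.24 and 9.53 with TCDD and 9.03, 9.13, 9.13 and 8.99 with vehicle. Here TCDD was the group that stood out, 0.39 above vehicle (adjusted p 0.038 by limma), while Cl-BBQ differed from vehicle by -0.06. That call was lost without TCDD replicate 1, 2 or 4 and without any 1 of the vehicle arrays, with adjusted p-values by limma between 0.058 and 0.11. The ligands differed by -0.46 (SE 0.10, interval -0.67 to -0.24) without overlap, at an adjusted p of 0.39 by limma.

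Of the 8 tested Th2 genes, 4 differences were negative and 4 positive. Il4ra, the alpha chain of the interleukin-4 receptor, read 8.57, 8.24, 8.33, 8.34 and 8.26 with Cl-BBQ and 7.93, 8.01, 7.93 and 8.08 with TCDD, a difference of 0.36 (interval 0.14 to 0.59) in the opposite direction. Gata3, the Th2 master regulator, differed by -0.01 (interval -0.29 to 0.28), Il13, a Th2 cytokine, by -0.14 (interval -0.50 to 0.23) and Ccr8, a chemokine receptor, by -0.29 (interval -1.07 to 0.50). Of 13 tested secreted cytokines, 3 were lower and none higher at an unadjusted p under 0.05 by limma, and 1 was higher without Cl-BBQ replicate 2, TCDD replicate 2 or vehicle replicate 3 or 4. The third of them, Tgfb1, an anti-inflammatory cytokine, differed by -0.28 (interval -0.49 to -0.08). Il2, the T cell growth factor, differed by 0.63 but with an interval of -0.09 to 1.35, Il17a by 0.27 (interval -0.15 to 0.69) and Il10, an anti-inflammatory cytokine, by 0.08 (interval -0.22 to 0.38).

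The follicular helper list holds genes of T cells that help B cells, and most had lower values with Cl-BBQ. Of 12 tested genes none passed the adjusted test, 11 differences were negative with a median of -0.19, and 4 were lower at an unadjusted p under 0.05 by limma, all 4 without overlap. Besides Il21 they were Bcl6, Tox and Cd200. Bcl6, the lineage's master repressor, read 7.71, 7.96, 7.84, 7.94 and 7.74 with Cl-BBQ, 8.24, 8.29, 8.06 and 8.14 with TCDD and 8.67, 8.47, 8.30 and 8.82 with vehicle, a difference between ligands of -0.34 (interval -0.58 to -0.11). Tox, a nuclear factor of follicular helper and exhausted cells, differed by -0.33 (interval -0.54 to -0.12), and Cd200, a surface glycoprotein, by -0.32 (interval -0.52 to -0.11). From vehicle, 9 of the 12 differences were negative with Cl-BBQ and 8 with TCDD. By the adjusted limma test 5 were lower with Cl-BBQ and 2 with TCDD, and 1 was higher with each. Of all genes tested, 6.03% and 3.5% were called lower and 5.31% and 3.21% higher. Maf, a transcription factor shared with other helper lineages, differed by -0.11 (interval -0.30 to 0.08).

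Regulatory and inhibitory genes, through which AhR ligands are often studied, did not separate the regimens at the adjusted threshold. Foxp3, the regulatory T cell master gene, read 7.15, 7.30, 7.12, 7.47 and 6.84 with Cl-BBQ, 7.62, 7.17, 6.78 and 7.11 with TCDD and 7.58, 7.66, 7.34 and 7.21 with vehicle. The ligand groups covered the same range, and the difference was 0.00 (interval -0.35 to 0.35). Of 16 tested regulatory T cell genes, 2 were higher at an unadjusted p under 0.05 by limma, Capg, an actin-capping protein, at 0.30 (interval 0.09 to 0.50) and Tnfrsf18, the receptor GITR, at 0.25 (interval 0.01 to 0.49), and the median was 0.07. That count of 2 was 4 without Cl-BBQ replicate 1, and 1 without Cl-BBQ replicate 3, without TCDD replicate 2, without TCDD replicate 3 or in the 9 ligand arrays alone. Nrp1, which had fallen from vehicle by 2.87 with each ligand, differed by -0.00 between them (interval -0.42 to 0.42).

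Among 12 tested inhibitory receptors the median difference was -0.03. At an unadjusted p under 0.05 by limma none was higher and 1, Cd200, was lower (8.33%, beside 3.7% of all genes). The lower count ranged from 1 to 3 when single arrays were left out. Lag3 differed by -0.03 (interval -0.19 to 0.14), Ctla4 by 0.10 (interval -0.11 to 0.30), Havcr2, which encodes TIM-3, by 0.20 (interval -0.39 to 0.78) and Pdcd1, which encodes PD-1, by -0.30 (interval -0.61 to 0.01). Among 11 tested genes of type 1 regulatory cells, which make interleukin-10, Itga2, the CD49b integrin chain, was higher by 0.58 (interval 0.21 to 0.95) at an unadjusted p under 0.05 by limma and Il21 was lower. Prdm1, the repressor Blimp-1, differed by 0.11 (interval -0.35 to 0.56).

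Homing receptors that rose strongly over vehicle with both ligands differed little between them. Gpr15, a receptor that guides T cells to the colon, read 8.09, 8.81, 8.76, 8.52 and 8.60 with Cl-BBQ, 8.64, 8.19, 8.19 and 8.02 with TCDD and 3.76, 4.77, 3.73 and 3.62 with vehicle. The ligand groups overlapped at a level far above vehicle, and the ligands differed by 0.29 (interval -0.18 to 0.76). Vehicle averaged 3.97, below the floor, so the fitted rises of 4.59 with Cl-BBQ and 4.29 with TCDD are not exact. Itgae, the CD103 integrin chain of tissue-resident cells, differed by 0.26 (interval -0.11 to 0.62), Cxcr6, a receptor of tissue effector cells, by 0.29 (interval -0.03 to 0.61) and Ccr9, a small intestine homing receptor, by 0.29 (interval -0.19 to 0.76). Itgb1, the integrin beta-1 chain, had fallen from vehicle by 3.23 with Cl-BBQ and 3.14 with TCDD and differed by -0.10 (interval -0.37 to 0.17). Of 20 tested genes in the list, 3 were higher with Cl-BBQ at an unadjusted p under 0.05 by limma, namely Ccr2, an inflammatory chemokine receptor, at 0.28 (interval 0.01 to 0.56), S1pr4, a sphingosine-1-phosphate receptor, at 0.23 (interval 0.02 to 0.44) and Selplg, a selectin ligand, at 0.22 (interval 0.00 to 0.43). That count ranged from 0 to 4 when single arrays were left out. It was 0 without TCDD replicate 4 and 1 without Cl-BBQ replicate 2 or 3, without TCDD replicate 1 or 2 or without vehicle replicate 2.

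Interferon-induced transmembrane genes were a mixed case. Ifitm3 read 9.35, 10.12, 10.25, 9.63 and 9.96 with Cl-BBQ, 9.45, 8.83, 9.56 and 9.31 with TCDD and 6.46, 6.85, 6.76 and 6.76 with vehicle, a difference between ligands of 0.57 (interval 0.18 to 0.97) with overlap at the low end of Cl-BBQ. Ifitm1 differed by 0.47 (interval 0.14 to 0.79), but Ifitm2 by 0.02 (interval -0.58 to 0.63), with rises over vehicle of 2.42 and 2.40. These genes are close copies of each other, and the share of signal that crosses between their probe sets is unknown. The 22 tested interferon-stimulated genes had a median difference of 0.02, none had an unadjusted p under 0.05 by limma, and all 22 intervals lay within 1 of 0.

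Most cell cycle genes had lower mean values with Cl-BBQ than with TCDD. None of the 22 mitotic genes tested (phases G2 and M) passed the adjusted test between the ligands, but 21 differences were negative, the median was -0.33, and 16 had an unadjusted p under 0.05 by limma. The count of 16, or 72.7% beside 3.7% of all genes tested, ranged from 11 to 16 when single arrays were left out. All 22 genes fell from vehicle with each ligand, by a median of 1.53 on the log2 scale with Cl-BBQ and 1.19 with TCDD, and these medians share the vehicle arrays. The ligand groups did not overlap for 4 of the 22, all lower with Cl-BBQ, beside 1.08% of all genes tested.

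Cdk1, the kinase that drives entry into mitosis, read 7.43, 7.58, 7.52, 7.66 and 7.41 with Cl-BBQ, 8.01, 8.14, 7.87 and 7.95 with TCDD and 9.44, 8.93, 9.13 and 8.75 with vehicle. The 3 groups were apart, and the ligands differed by -0.47 (SE 0.12, interval -0.74 to -0.21) with an adjusted p of 0.46 by limma. Plk1, a mitotic kinase, read 7.02, 6.93, 7.07, 7.01 and 7.19 with Cl-BBQ, 7.56, 7.44, 7.42 and 7.44 with TCDD and 8.78, 8.65, 8.17 and 8.39 with vehicle. Again no value crossed, and the difference was -0.42 (interval -0.67 to -0.18). Ccna2, cyclin A, differed by -0.32 (interval -0.51 to -0.12) without overlap. Mki67, the proliferation marker Ki-67, averaged 7.88 ± 0.41 (SD, n = 5) and 8.36 ± 0.13 (SD, n = 4), with overlap and a difference of -0.48 (interval -0.85 to -0.10). Top2a, the topoisomerase of dividing cells, differed by -0.34 (interval -0.59 to -0.09).

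DNA replication genes gave smaller differences. Of 19 tested S phase genes none passed, 15 differences were negative with a median of -0.15, and 6 were lower at an unadjusted p under 0.05 by limma, 4 to 8 when single arrays were left out. Pole, a DNA polymerase subunit, differed by -0.36 (interval -0.60 to -0.11), Rrm1, a subunit of ribonucleotide reductase, by -0.35 (interval -0.60 to -0.10) and Mcm7, of the replicative helicase, by -0.25 (interval -0.43 to -0.06), all 3 without overlap. From vehicle, all 19 differences were negative with each ligand, and 18 passed the adjusted limma test with Cl-BBQ and 16 with TCDD. Of all genes tested, 6.03% and 3.5% were called lower. All 5 tested replication-dependent histone genes had negative differences, and 2 were lower at an unadjusted p under 0.05 by limma. That count was 0 without Cl-BBQ replicate 2 or 4 or TCDD replicate 1 or 3. H1f1 differed by -0.68 with an interval of -1.34 to -0.03, from a Cl-BBQ mean of 4.57 near the floor. Since cDNA was primed with oligo-dT, per the labels' protocols, how well these arrays measure histone transcripts is unknown. The cells of all groups had been sorted on a minimum of 2 divisions, and the number of divisions beyond that on each array is not given in the labels.

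**Figure D4:**
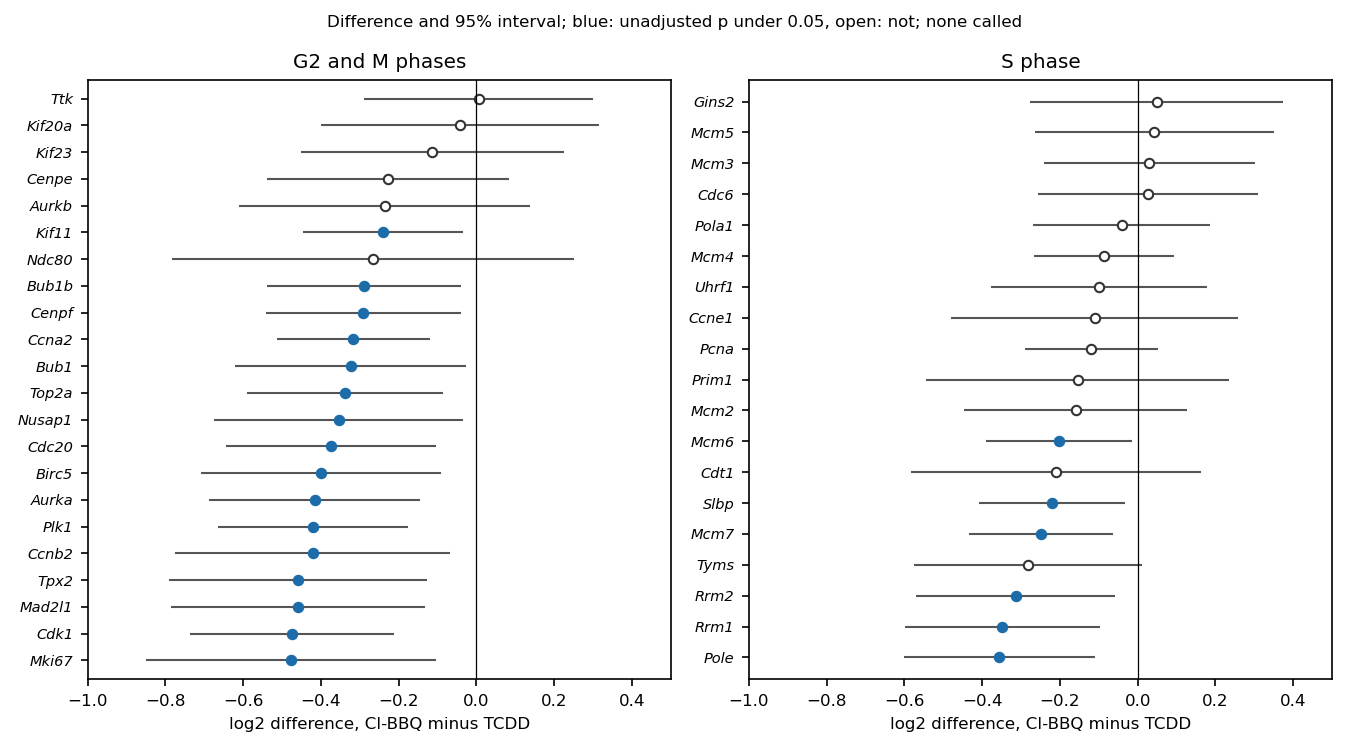
Difference between Cl-BBQ and TCDD (log2, horizontal axis) with its 95% interval for 22 mitotic genes (phases G2 and M) and 19 genes of the S phase. Blue points have an unadjusted p under 0.05 and open points do not, none passed the adjusted test, and 21 and 15 of the differences are negative.

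Single genes near the threshold came from outside these lists or from their edges. Gstp3, a glutathione S-transferase of the pi class, read 8.85, 8.88, 9.33, 9.39 and 9.27 with Cl-BBQ, 10.05, 9.75, 9.86 and 10.07 with TCDD and 11.41, 11.22, 11.18 and 11.21 with vehicle. It was the lower gene with the smallest p, at a difference of -0.79 (SE 0.13, interval -1.06 to -0.52) and an adjusted p of 0.051 by limma (0.047 without Cl-BBQ replicate 4), and it fell from vehicle by 2.11 with Cl-BBQ and 1.32 with TCDD. Its relative Gstp1 differed by -0.05 (interval -0.29 to 0.20) and lay above vehicle by 0.25 with Cl-BBQ and 0.30 with TCDD. The probe sets of these 2 genes thus gave different patterns, and how far they cross-react is unknown. Slc29a1, a nucleoside transporter, read 7.57, 7.27, 7.03, 7.08 and 7.23 with Cl-BBQ and 7.91, 8.04, 7.83 and 7.72 with TCDD (difference -0.64, interval -0.89 to -0.39, adjusted p 0.1 by limma). Its highest Cl-BBQ value was that of replicate 1.

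Without Cl-BBQ replicate 1, 2 genes passed the adjusted test, Gzma higher and Slc29a1 lower (adjusted p 0.036 by limma). Ticrr, which starts DNA replication, read 4.26, 4.25, 4.35, 4.36 and 4.26 with Cl-BBQ and 4.88, 4.88, 4.87 and 4.89 with TCDD, a difference of -0.58 (interval -0.81 to -0.36, adjusted p 0.1 by limma) close to the floor. Without vehicle replicate 3 that p was 0.049. Mnd1, a protein of meiotic recombination, averaged 3.41 with Cl-BBQ, below the floor, against 4.41 with TCDD and 5.47 with vehicle. Cdca2, a chromosome-bound phosphatase subunit, differed by -0.63 (interval -0.93 to -0.33).

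On the higher side, Wfikkn2, a secreted protein with protease inhibitor domains, read 6.21, 6.42, 6.80, 6.44 and 6.30 with Cl-BBQ, 5.59, 5.77, 5.47 and 5.80 with TCDD and 4.80, 5.19, 4.75 and 4.83 with vehicle. The 3 groups were again ordered with TCDD between, at a difference between ligands of 0.78 (SE 0.13, interval 0.50 to 1.06) and an adjusted p of 0.065 by limma. Sgms1, a sphingomyelin synthase, differed by 0.43 (interval 0.22 to 0.65) without overlap. Stfa3, a cysteine protease inhibitor of the stefin A cluster, had fallen from vehicle by 4.60 with Cl-BBQ and 3.56 with TCDD, and its ligand groups averaged 3.60 ± 0.73 (SD, n = 5) and 4.64 ± 0.38 (SD, n = 4). Its difference of -1.04 (interval -1.72 to -0.36) lay partly below the floor, and copies of the gene in the same cluster may share its signal.

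No gene of the metabolic and stress lists other than Nqo1 passed the adjusted test. In cholesterol synthesis, 14 of 15 tested differences were positive, the median was 0.19, and 4 genes were higher at an unadjusted p under 0.05 by limma, namely Fdft1, Msmo1, Lss and Mvk. That count of 4 was 2 without Cl-BBQ replicate 1 and 2 with a floor of 6. Fdft1, squalene synthase, read 8.34, 8.01, 8.25, 8.21 and 8.22 with Cl-BBQ and 7.94, 7.99, 8.0 and 7.87 with TCDD, without overlap, a difference of 0.26 (interval 0.06 to 0.45). Against vehicle, 13 of the 15 differences were positive with each ligand, and 8 passed the adjusted limma test as higher with Cl-BBQ and 3 with TCDD. Of all genes tested, 5.31% and 3.21% were called higher. Of 14 tested glycolysis genes, 1 was higher at an unadjusted p under 0.05 by limma (7.14%, beside 2.71% of all genes). It was the glucose transporter Slc2a1 at 0.25, but its further probe set gave -0.01. None was higher without TCDD replicate 3 or 4, and 2 were without Cl-BBQ replicate 5.

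Beyond Nqo1 and Gstp3, the 11 tested NRF2 and glutathione genes had a median difference of 0.02. The 20 tested genes of other phase I and phase II metabolism, the class of enzymes that AhR ligands can induce in liver, had a median of 0.04. At an unadjusted p under 0.05 by limma 1 gene was higher (5%, beside 2.71% of all genes). This was Cyp2r1, a vitamin D 25-hydroxylase, at 0.54 (interval 0.05 to 1.02). That count of 1 was 0 without Cl-BBQ replicate 1, Cl-BBQ replicate 5 or TCDD replicate 2 and with a floor of 6, and 2 without TCDD replicate 4. Unfolded protein response genes (15 tested), metallothionein and heat shock genes (6 tested) and TGF-beta pathway genes (14 tested) had medians of 0.03, -0.06 and 0.02. The 15 tested genes of apoptosis and p53 had a median of 0.12 with 13 positive differences, and none had an unadjusted p under 0.05 by limma. At that threshold 1 was higher without Cl-BBQ replicate 1 or 4, and without TCDD replicate 4 there were 2 higher and 1 lower.

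**Figure D5:**
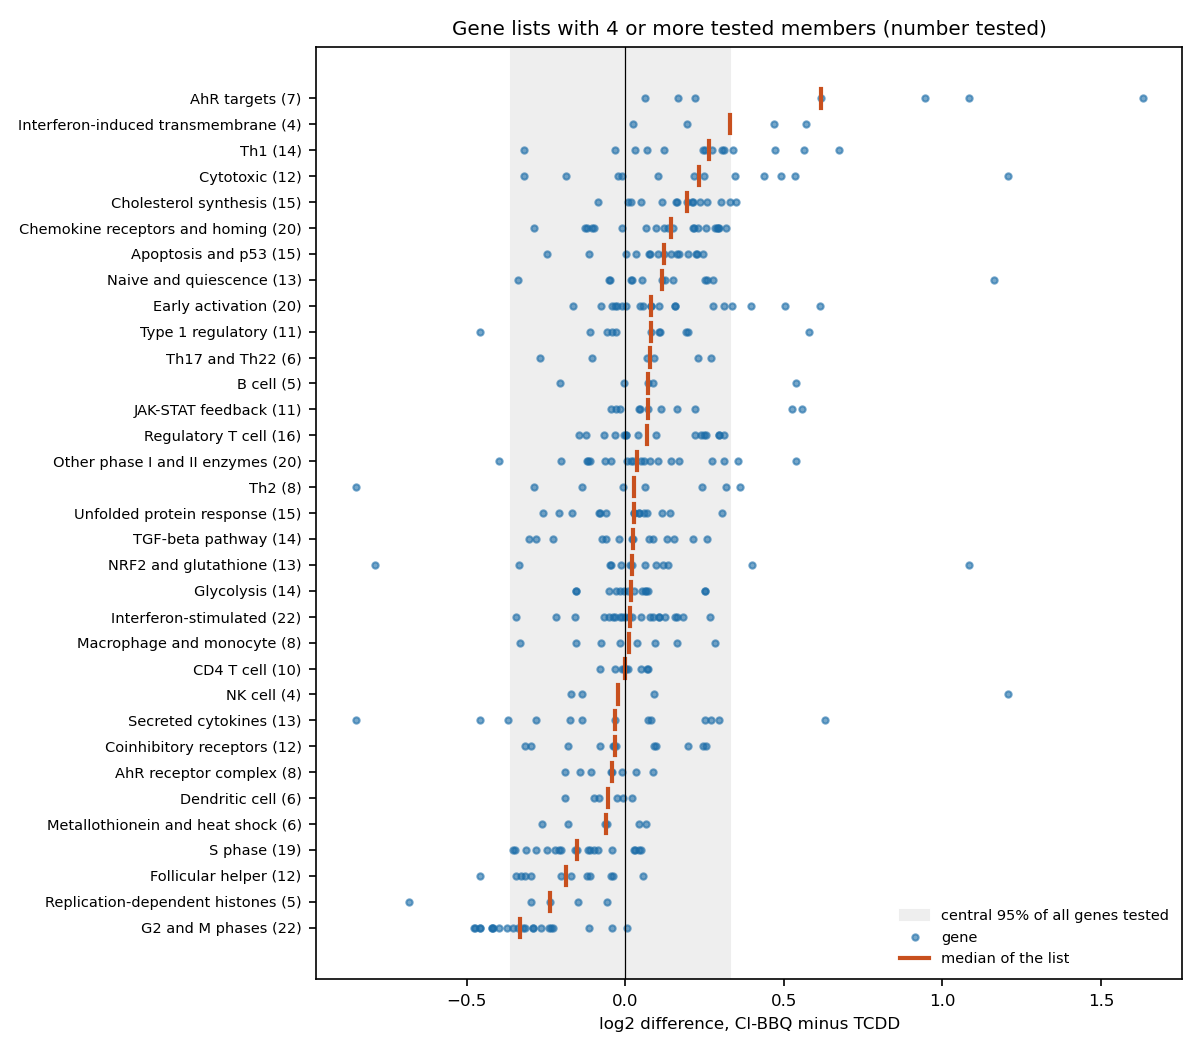
Difference between Cl-BBQ and TCDD (log2, horizontal axis) for each tested gene (blue points) of the lists with 4 or more tested members, ordered by the list's median (orange bars), with the number tested in parentheses. The grey band holds the central 95% of all genes tested, -0.36 to 0.33, and the median of the AhR targets, 0.62, lies outside it. Of these targets, Ahrr (0.22), Fgf21 (0.17) and Nfe2l2 (0.06) lie inside the band.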

How the data were processed

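RNA of 13 samples was hybridised to 13 single-colour arrays with biotin-labelled targets. The deposited log2 values come from RMA, per the submitters' processing notes. RMA subtracts a background, forces all arrays to one distribution by quantiles and combines the probes of a probe set. The sources used here name neither its software nor its version. Quantile normalization hides any shift common to all transcripts. The table held 41345 probe sets, and array medians lay between 4.27 and 4.33. The platform annotation named 25335 probe sets, 23521 with 1 symbol. Probe sets with several symbols (1814) or unnamed (16010) named no gene, and of several probe sets for a gene the one with the highest mean over 13 arrays was used. Of 515 listed genes, 63 were not analysed here.

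The model of 3 group means was fitted to all 13 arrays with limma 3.58.1 in R 4.3.3, two-sided, with Benjamini-Hochberg adjustment over the 12710 genes above 4.31 on at least 4 arrays. It was tested on simulated data. The number of arrays limits the precision, and p-values rest on the spread among these mice. The members and lists were chosen with earlier results of these data known. Genes named were those called without overlap, then the next non-overlapping genes by unadjusted p up to 8 in each direction, a fixed list of 34, and up to 3 members of each list with the smallest p, with predicted genes, clones and T cell receptor segments left out. Others needed to describe a list were named after their values were seen. Alternatives changed the arrays fitted, filter, probe set choice, normalization, variance model, array weights, replicate block and each array. Same-numbered arrays of different groups did not deviate together (correlations of -0.059 to 0.075), so the numbers were taken as names.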

Additional observations from a re-analysis of the deposited data

Results flagged for a closer look

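Of 333 sets of values, 111 named genes in 3 groups, 19 held 1 array whose gap to its nearest neighbour was large against the range of its group by Dixon's criterion, where chance gives about 1 in 20. On the Cl-BBQ arrays, Il2 read 6.85 and Slc2a1 8.35 on replicate 1, Lss 6.11 on replicate 3, and S1pr4 7.67 and Selplg 11.71 on replicate 4, each above the other 4 arrays. On the TCDD arrays, Plk1 read 7.56 on replicate 1, above the others, while Il18r1 read 6.95 on replicate 2, Arnt 7.57 and Il21 9.24 on replicate 3 and Capg 7.41 on replicate 4, each below the others. On the vehicle arrays, Prdm1 read 6.10 on replicate 1 and Gpr15 4.77 on replicate 2, above the others, and Ccr8 read 4.62 on replicate 1, Cd8b1 6.52, Il10 5.57 and Tnfrsf18 8.73 on replicate 2 and Cd4 10.27, Il18r1 5.77 and Selplg 10.25 on replicate 3, below the others.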

How the results depend on the processing

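Between Cl-BBQ and TCDD, 3 genes passed by limma. The count was 0 with the 9 ligand arrays alone (785 at an unadjusted p under 0.05), 0 with no filter (1266), 0 when every probe set was tested (1236) and 0 with the replicate number as a block (781), a number the main fit did not use to pair arrays. It was 7 with a floor of 6, 5 with the mean of a gene's probe sets, 6 after quantile normalization was repeated, 5 with an intensity trend and 7 with array weights. It ranged from 0 to 5 when single arrays were left out. Across 24 alternatives Gzma passed in 12 and Il7r and Nqo1 in 10 each, with adjusted p-values by limma of 0.012 to 0.24, 0.012 to 0.24 and 0.017 to 0.24. Their differences stayed between 1.09 and 1.32, 1.10 and 1.26, and 0.93 and 1.19. Cyp1a1 passed in 8, with p-values of 0.017 to 0.28. No call between the ligands changed sign under any alternative run. The counts of genes called against vehicle stayed within 1.5 times under each alternative. Values near the floor, as for Cyp1a1 and Mnd1, are limited by signal over background.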

Other observations

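Of the 12 genes that differed by over 1 between the regimens, 7 were none of Cyp1a1, Gzma, Il7r, Nqo1 and Stfa3. They were named after their values were seen. Of these, 4 were the small RNAs Snord61, Snord92, Mir5098 and Mir186, and since cDNA was primed with oligo-dT, per the labels' protocols, their probe sets may not measure the mature small RNAs and their values are not given. Adam4, an ADAM family gene, spread from 3.47 to 5.80 with Cl-BBQ and from 2.55 to 4.06 with TCDD, a difference of 1.33 (interval 0.51 to 2.15), with a vehicle mean of 4.60 beside a Cl-BBQ mean of 4.59. Phxr4 differed by 1.14 (interval 0.46 to 1.81) and Tmem108, a membrane protein gene, by 1.13 (interval 0.19 to 2.07). None of these 7 passed the adjusted test by limma.

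For Hbq1b and Vmn1r127, as for Il21 above, the ligand groups did not overlap and the vehicle mean lay between the means of the ligands. Vehicle values overlapped those of 1 ligand. How many other genes had this order was not counted. Hbq1b, a globin-like gene, read 3.85, 4.76, 4.56, 4.22 and 4.67 with Cl-BBQ, 4.96, 5.89, 5.34 and 5.25 with TCDD and 4.76, 4.78, 4.90 and 4.71 with vehicle, and the ligands differed by -0.95 (interval -1.36 to -0.53, adjusted p 0.26 by limma) without overlap. Vmn1r127, listed as a vomeronasal receptor gene, averaged 5.09 ± 0.16 (SD, n = 5) with Cl-BBQ, 5.86 ± 0.31 (SD, n = 4) with TCDD and 5.61 ± 0.30 (SD, n = 4) with vehicle. Markers of mast cells were measured on the same arrays. Kit, a growth factor receptor on that list, rose from vehicle by 0.81 with Cl-BBQ and 1.19 with TCDD, and the ligands differed by -0.38 (interval -0.69 to -0.07). The markers Cpa3, Mcpt8, Mcpt4, Fcer1a and Gata2 were at or below the floor on all arrays.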
